A study of Homo sapiens with 18 samples.

Results

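The introns described here carry weak 3' splice sites, the borders at which an intron ends and the next exon begins. They were chosen from the authors' table of 21782 introns in 4163 genes by sequence features alone: a length from 150 to below 10000 nt, a GC content below 55%, a 5' splice site score of at least 6 and a 3' splice site score below 6. The scores are MaxEnt log-odds scores, which rate how much a stretch of sequence looks like a real splice site. The rule gave 1985 introns in 1200 genes, and 12118 introns in 3305 genes that met the same limits with a 3' score of at least 6 served as comparison. The score cut falls within a continuous range. Just inside it, introns of YME1L1, ANXA2 and FOXK2 had a score of 5.99 and excised shares of 80.2%, 96.1% and 88.8% at 60 min. Just outside it, introns of USP6NL, KIF5B and CUL2 had a score of 6 and excised shares of 91.1%, 87.0% and 85.3%.

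RNA came from HEK293 cells, an established human embryonic kidney line with no other genotype or treatment given in the labels. To mark newly made RNA, cells were given 500 µM 4-thiouridine, which is built in like uridine, and the labelled RNA was biotinylated and bound to streptavidin. Labelling for 7.5, 15, 30, 45 or 60 min gave 3 libraries per time (15 in all), and 3 further libraries held total RNA. Each total library was made with another way of removing ribosomal RNA (oligo-dT selection, RNase H with DNA oligos, Ribo-Zero), so their spread holds the method as well as the sample. The labels do not tell whether the 3 libraries of a time stem from different cultures; p-values therefore cover the spread among libraries only, part of which may be technical.

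In the first steps of spliceosome assembly, SF1 binds the branch point, the large U2AF subunit (U2AF2) binds the polypyrimidine tract and the small subunit (U2AF1) contacts the AG at the end of the intron. The U2 particle with its SF3A and SF3B proteins then pairs with the branch point. Weak 3' sites have a poor tract or a poor AG context, and they are known to lean more on exonic enhancers bound by SR proteins and to be used more often in alternative splicing.

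Sequences of these sites are shown to make the score visible. No genome of the authors' build was used, so the sites were read from GENCODE 29 transcripts that retain the intron, matched by gene, exact length and GC content. That gave 1243 introns of all kinds, with 99 weak-site and 425 comparison introns among them. Each sequence runs 5′ to 3′ over the last 20 intron bases and the first 3 exon bases. Capitals mark purines (A or G) among the 18 bases that precede the last 2 of the intron, which is the stretch where a good tract has pyrimidines. The first set holds weak-site introns with low scores.
PTMA: GcctGttttctGtcGAGGagaat
CNBP: GtttcttttccttAttGttgaag
RSRC2: ctAtAAtAAAtcAtActcagcgt
HMGN2: tctcttcctGccAAAAAAagaaa
DHX40: AAAAGAAAtGttttGtAtagctt
EIF4A2: AGActttttAAAAAAtAcaggag
The next set holds weak-site introns close to the cut, with scores of 5.97 (YWHAB) and 5.98 (ACIN1).
YWHAB: ctAAAGGctctttGttttaggca
ACIN1: tcttGtGGtcttcttGAtagtga
The last set holds comparison introns with scores near the comparison median of 9.04.
SNHG5: ttttttttttctGccAAcagtga
EPC1: tttcAtttGtAtAAttttaggta
U2AF1: tttAttttccttGGttGcaggca
The PTMA intron (prothymosin alpha, hg19 chr2:232576130-232576599, plus strand) had a score of -7.99, with 7 purines in the stretch and an AG inside it. The CNBP intron (a nucleic-acid binding zinc finger protein, chr3:128890124-128890288, minus strand) scored 0.05 although it had 3 purines only, and the sequence matched to it does not end in AG. The HMGN2 intron (a nucleosome-binding protein, chr1:26800224-26800575, plus strand) scored 1.43, and its tract is followed by a run of adenines up to the border. In DHX40 (an RNA helicase gene, chr17:57682546-57682806, plus strand), 11 of the 18 bases were purines and the score was 1.48. The EIF4A2 intron (a translation initiation helicase, chr3:186505672-186506098, plus strand) scored 1.53, with 10 purines, and the RSRC2 intron (an arginine and serine-rich protein, chr12:123005129-123005931, minus strand) scored 1.39, with 8.

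Across the matched introns, weak sites had fewer pyrimidines, shorter tracts and more early AG dinucleotides. The median pyrimidine content of the 18 bases was 61.1% in the 99 weak sites (quartiles 55.6% and 72.2%) and 77.8% in the 425 comparison sites (quartiles 72.2% and 83.3%). The longest unbroken pyrimidine run had a median of 5 bases against 8. An AG lay inside the 18 bases in 32 weak sites (32.3%), in 27 comparison sites (6.35%) and in 163 of the 1243 matched introns (13.1%). At the base just before the terminal AG, weak sites had C in 37.4%, T in 41.4%, A in 18.2% and G in 3.03%. Comparison sites had C in 57.2%, T in 38.6% and A in 4.24% there, and no G in the 425 sites. The intron ended in AG in 98 of 99 weak sites and in 425 of 425 comparison sites. The score is computed from these same bases, so the differences describe what the score measured. Introns found inside a retaining transcript were also less excised than the rest: at 60 min, the 99 weak-site introns had a median excised share of 68.0% and the 425 comparison introns 72.5%.

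The excised share is the authors' intron-centred splicing value, the share of reads at an intron that show it removed. It was deposited as the mean of 3 libraries, so no spread between libraries could be given and the values are described without a test. The number of reads behind each value is unknown beyond the authors' minimum of more than 5 reads in all 3 replicates. Weak-site introns had slightly lower excised shares than comparison introns at each time, and the difference was largest at the 2 shortest times. Over the 5 times, from 7.5 to 60 min, their median was 50.5%, 54.8%, 69.4%, 80.5% and 84.1%. Comparison introns had medians of 53.1%, 57.5%, 70.4%, 81.4% and 85.03%, and the medians over the whole set of 21782 introns were 54.2%, 57.9%, 69.6%, 80.6% and 84.4%. The difference between the 2 groups' medians was -2.68, -2.67, -1.01, -0.97 and -0.91 percentage points in the same order. The distributions overlapped widely: the SD over weak-site introns was 16.1 points at 7.5 min and 12.7 points at 60 min. At 7.5 min 30.2% of weak-site introns lay below the lower quartile of comparison introns, and at 60 min 27.7% did. With 1 value per gene in each group the difference was -1.64 points at 7.5 min and -1.70 at 15 min, but 0.13 at 30 min, 0.11 at 45 min and -0.20 at 60 min. With 1 value per gene the lower level was thus not kept at 30 and 45 min and was smaller at 60 min. The comparison within genes that hold both kinds, given below, kept it at each time.

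**Figure D1:**
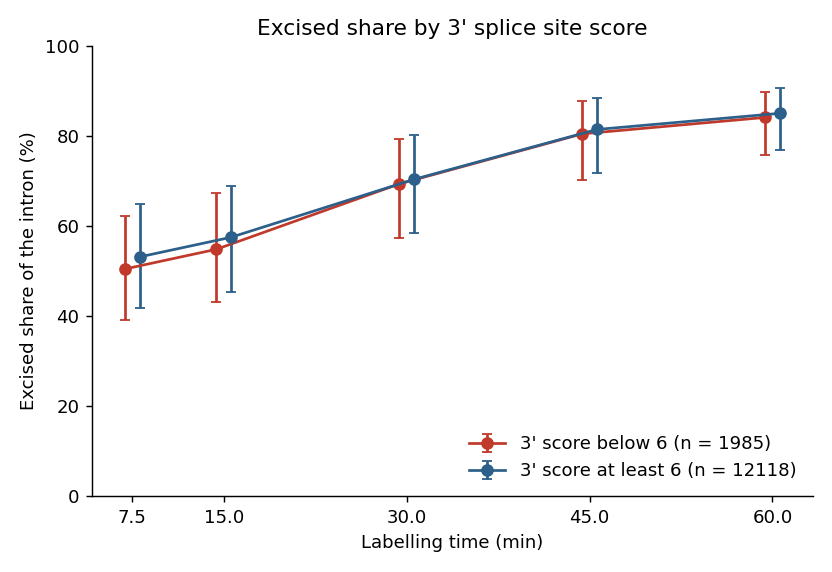
Excised share (%) against labelling time (min) for the 1985 introns with a 3' score below 6 and the 12118 with a score of at least 6. Points are medians over introns and bars run from the lower to the upper quartile; the medians lie 2.68 points apart at 7.5 min and 0.91 points apart at 60 min, with overlapping quartile ranges at each time.

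Excision of weak-site introns advanced over the time course much as that of comparison introns did. The median gain from 7.5 to 60 min was 30.8 points in weak-site and 29.7 points in comparison introns. Their largest median step, 12.2 points, came between 15 and 30 min. At 7.5 min 68 weak-site introns (3.43%) had an excised share of at least 80%, and at 60 min 1262 (63.6%) did, against 67.2% of comparison introns. At 60 min 71 weak-site introns (3.58%) and 281 comparison introns (2.32%) were still below 50%. The excised share was lower at 60 than at 7.5 min in 60 weak-site introns (3.02%) and in 422 comparison introns (3.48%).

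Introns with scores below 2 had the lowest medians, although levels below the cut did not follow the score step by step. The 159 introns with a 3' score below 2 had a median excised share of 46.9% at 7.5 min and 80.01% at 60 min. Among these, the 49 introns with a score below 0 had 44.7% and 83.2%, and the 110 with a score from 0 to below 2 had 47.2% and 77.8%, so at 60 min the lowest scores did not have the lowest median. The 1826 introns with a score from 2 to below 6 had 51.0% and 84.3%. Above the cut there was little further change: introns with a score from 6 to below 9 had 52.4% and 85.3%, and those with a score of at least 9 had 53.9% and 84.8%. At 30 min the highest scores did not go with the highest values, since the median was 71.1% for scores from 6 to below 9 and 69.7% for scores of at least 9.

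**Figure D2:**
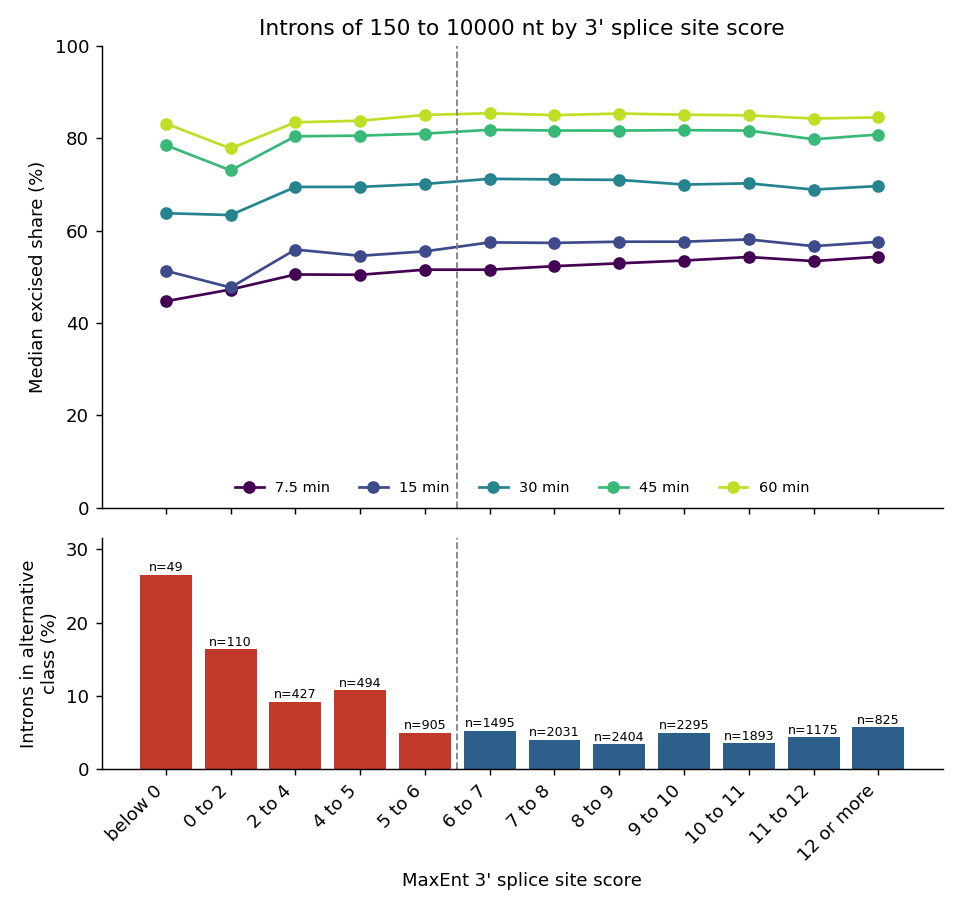
Upper panel, median excised share (%) at each labelling time by 3' splice site score; lower panel, percentage of introns in the authors' alternative class, with the number of introns above each bar. The dashed line marks the score cut of 6. The curves are nearly flat above the cut and lower for scores below 2, with the 60 min median at 77.8% for scores from 0 to below 2 and 83.2% below 0; 26.5% of the 49 introns with a score below 0 were in the alternative class.

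The alternative class was more frequent among weak-site introns. The authors sorted introns by their spliced-in index (psi, the authors' measure of how often a splice is made) into a constitutive and an alternative class. The alternative class held 168 weak-site introns (8.46%), 517 comparison introns (4.27%) and 5.53% of the whole table. It held 31 of the 159 introns with a score below 2 (19.5%) and 7.50% of those with a score from 2 to below 6. Alternative weak-site introns had a median excised share of 42.5% at 7.5 min and 74.4% at 60 min, and constitutive ones 51.4% and 84.6%. In the comparison group, alternative introns had 44.7% and 75.7% and constitutive introns 53.4% and 85.3%. Within the constitutive class alone the weak-site introns were 2.01 points lower at 7.5 min and 0.64 points lower at 60 min. Of the authors' 3 classes of excision over time, the fast class held 34.2% of weak-site and 38.7% of comparison introns, the medium class 46.9% and 45.0%, and the slow class 18.99% and 16.2%.

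Sharing of a 5' splice site with another intron of the table, which means a choice between 3' sites, applied to 145 weak-site introns (7.30%) and to 329 comparison introns (2.71%). Sharing of the 3' site itself applied to 3.58% and 3.52%. Of the 145, 140 competed with exactly 1 partner, and in 77 of these the partner had a 3' score of at least 6. In these 77 pairs the weak-site intron had a median psi of 37.0% at 60 min and its partner 53.8%, and the weak-site intron had the lower psi in 46 pairs. Excised shares of the same pairs were close, with medians of 75.8% for the weak-site introns and 77.2% for the partners at 60 min. In 13 of the 77 pairs the 3' sites lay 3 nt apart, and the weak site had the lower psi in 11 of them. Values of both introns in a pair draw on the same 5' site and partly on the same reads.

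**Figure D3:**
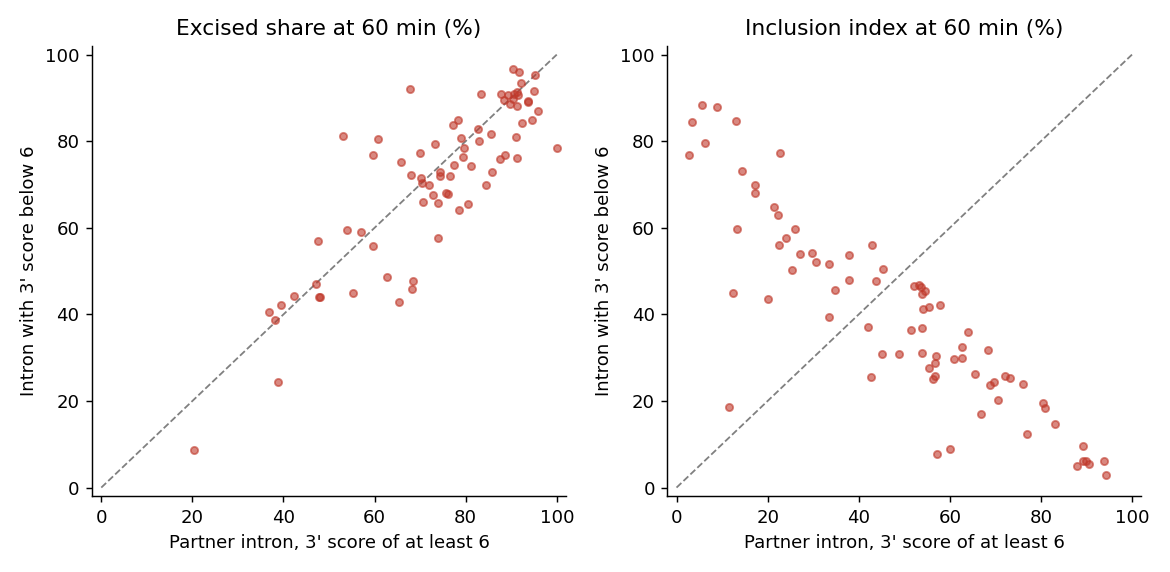
Each point is 1 of 77 pairs of introns with the same 5' splice site, a weak-site intron on the vertical axis and its partner with a 3' score of at least 6 on the horizontal axis. Left, excised share at 60 min (%); right, psi at 60 min (%); the dashed line marks equal values, and points in the right panel fall along a descending line, 46 of them below the dashed line.

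Pairs from single genes show how far psi followed the score. SRSF10, a gene for an SR-type splicing factor, offered 3' sites 3 nt apart. The intron with the weak site was chr1:24298114-24298339 (minus strand, score 2.1), and its partner chr1:24298117-24298339 scored 6.04. In SRRM1, a splicing coactivator gene, the weak-site intron chr1:24973281-24973569 (plus strand) scored 4.72 and its partner chr1:24973281-24975349 scored 11.75. In EIF4A2, the weak-site intron chr3:186502486-186503671 (plus strand) scored 4 and its partner chr3:186502486-186502750 scored 9.69.
SRSF10 weak: tctGAtAtGctttttAGcagtag
SRSF10 partner: ttttctGAtAtGctttttagcag
SRRM1 weak: tGtGAtttAtGAtttAAAaggcc
SRRM1 partner: cctGtcGtGtctttttGcagaat
EIF4A2 weak: AAttAAGGcttGGGttttagatc
EIF4A2 partner: GtGtAtcctActttttttagggt
In SRSF10 the weak site had a psi of 18.7% at 7.5 min and 20.1% at 60 min, and the partner 76.7% and 70.7%. Both introns had an excised share of 70.3% at 60 min. In SRRM1 the weak site had a psi of 32.0% at 7.5 min and 29.9% at 60 min, and the partner 66.0% and 62.7%. The weak site of EIF4A2 went from a psi of 13.7% to 25.7% while the partner went from 75.7% to 56.8%. In these 3 genes the weaker site had the lower psi at both times. RPS3, a ribosomal protein gene, held the lowest score of all, -11.47 (chr11:75113491-75115097, plus strand). Its psi was 5.12% at 7.5 min and 2.95% at 60 min, against 94.3% at both times for the partner with a score of 10.95. ZFP64, a zinc finger gene, held the opposite case. Its intron chr20:50803611-50808129 (minus strand) scored -10.32 and had a psi of 90.6% at 60 min, while a partner 6 nt away with a score of 2.71 had 9.38%.

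Of the 8 introns with the lowest scores, 5 lay above the weak-site median of 84.1% at 60 min. Those of RPS3, ZFP64 (83.4%) and NUP107 lay below it. Introns of UCHL5 (a deubiquitinase, score -10.08), CIZ1 (a nuclear zinc finger protein, -9.85) and PTMA (-7.99) had excised shares of 90.7%, 90.3% and 92.8% at 60 min. Introns of ETFA (electron transfer flavoprotein, -5.97) and HBS1L (a ribosome rescue factor, -5.61) had 86.8% and 86.9%. The intron of NUP107, a nuclear pore gene, scored -4.53 and reached 75.9%. Among these 8 lowest scores, RPS3 was the least excised at 60 min, with 64.0%, while at 7.5 min UCHL5 (44.6%) and NUP107 (48.3%) lay below RPS3 (50.1%). The introns of RPS3, ZFP64, UCHL5, CIZ1, PTMA and HBS1L shared their 5' site with another intron, and those of ETFA and NUP107 did not.

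Some weak-site introns were present in most of the reads at the intron after 60 min of labelling. At 60 min the lowest excised shares were 8.69% in an intron of the lncRNA XIST (chrX:73042052-73045949, score 3.28) and 16.7% in an intron of SRSF5, an SR splicing factor (chr14:70235969-70237183, score 5.41). They were followed by introns of HNRNPH1, an hnRNP that binds G-rich RNA (22.995% and 27.3%), of NASP, a histone chaperone (23.9% and 25.6%), of RPS24, a small-subunit ribosomal protein (24.4%), and of CHTOP, an mRNA export factor (29.9%). In SRSF5 the share was 22.1%, 18.3%, 13.7%, 12.9% and 16.7% over the 5 times, so it did not climb with labelling. In RPS24 it went from 60.2% at 7.5 min to 18.2% at 30 min and 24.4% at 60 min. These introns of XIST, NASP and RPS24 were in the alternative class, with psi from 26.0% to 56.0% at 60 min. Those of SRSF5, HNRNPH1 and CHTOP were in the constitutive class. At the other end, introns of ASCC3, BBX and ARHGAP26 were listed at 100% at 60 min, and introns of IPO7, KMT2E, TRIM37, ESYT2 and GOLGA8A lay between 98.3% and 99.2%. Their 3' scores ranged from 3.85 to 5.95, and those of the 8 least excised introns from 3.28 to 5.66.

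Most host genes carried 1 weak-site intron (758 genes) or 2 (264 genes). The comparison within genes removes differences between genes in expression, while introns of the same gene still differ in position. In the 1074 genes with introns of both kinds, the gene's mean excised share of weak-site introns minus that of comparison introns had medians of -1.36, -1.83, -1.41, -1.25 and -0.92 points over the 5 times. The weak-site introns were lower in 597 genes at 7.5 min (55.6%) and in 586 at 60 min (54.6%). In the 400 genes with at least 2 introns of each kind the median was -2.22 points at 7.5 min and -1.13 at 60 min.

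TPR, which encodes a filament protein of the nuclear pore basket, had the most weak-site introns, 12, beside 19 comparison introns. The mean excised share of its weak-site introns was 38.0% at 7.5 min (lowest 19.4%, highest 60.0%) and 86.0% at 60 min, against 49.96% and 89.8% in its comparison introns. In the other 5 genes with the most weak-site introns the means lay closer together. At 7.5 min, weak-site and comparison means were 57.5% and 54.7% in CNOT1 (scaffold of the deadenylase complex), 58.0% and 59.9% in MACF1 (a microtubule and actin linker), and 41.6% and 44.0% in EIF3A (an initiation factor subunit). They were 52.2% and 49.7% in CEP350 (a centrosomal protein) and 53.1% and 52.8% in DST (dystonin). At 60 min the weak-site mean was the higher one in 4 of these 5 genes, against the order over all introns: 93.5% and 91.6% in MACF1, 88.7% and 87.1% in EIF3A, 90.6% and 87.6% in CEP350, and 91.4% and 90.5% in DST. In CNOT1 it was 87.9% against 91.02%. Within EIF3A, the intron with a score of -3.71 (chr10:120803655-120809312) reached 90.6% at 60 min, and the least excised one, at 75.5%, had a score of 2.4.

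**Figure D4:**
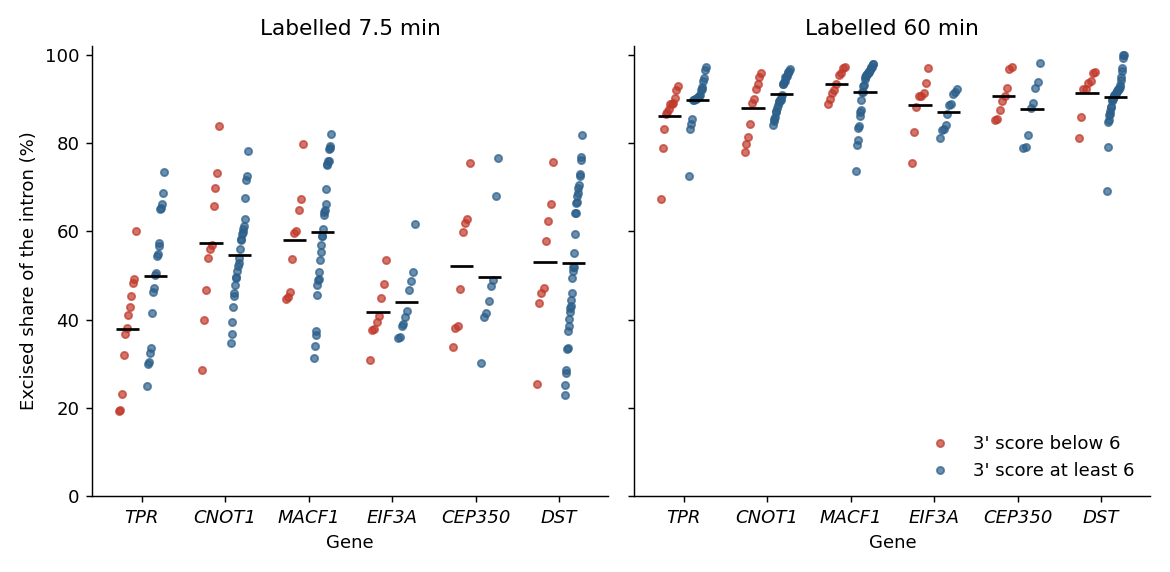
Excised share (%) of each intron in the 6 genes with the most weak-site introns at 7.5 and 60 min; red points have a 3' score below 6, blue points at least 6, and black bars are means. In TPR the red mean is 38.0% and the blue mean 49.96% at 7.5 min; in the other 5 genes the means lie closer together.

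Among genes with at least 2 introns of each kind, weak-site introns lay furthest below comparison introns at 60 min in HNRNPH1, SMG6, RPL6, ATP5F1B, ZRANB2 and NOP2. HNRNPH1 had means of 27.8% for 3 weak-site introns and 72.5% for 6 comparison introns. SMG6, an endonuclease of nonsense-mediated decay, had 52.3% and 88.6%. RPL6, a large-subunit ribosomal protein, had 50.1% and 85.8%, and ATP5F1B, the beta subunit of ATP synthase, had 57.1% and 86.1%. ZRANB2, a splicing-associated zinc finger protein, had 54.5% and 83.1%, and NOP2, an rRNA methyltransferase, had 65.7% and 91.7%. The opposite order also occurred. RBMX, an hnRNP-type protein, had 89.3% for weak-site and 71.9% for comparison introns. SRP72 (signal recognition particle) had 92.7% and 75.4%, RPS24 55.5% and 36.8%, CNN3 (calponin 3) 89.5% and 72.6%, ZFP64 79.7% and 62.8%, and PIBF1 (a centrosomal protein) 94.6% and 80.2%. These 12 genes were named for the size of the difference, which is therefore a description. Sites from 2 of them are printed. The lower score went with the lower excised share in the HNRNPH1 pair but not in the RBMX pair.
HNRNPH1 weak: ccttAtGAAcAAtGctttaggta
HNRNPH1 comparison: tcAAAttGAtctctttGcaggta
RBMX weak: ttctGAAAActActttttagtac
RBMX comparison: cctGAccAttGAccctGcaggta
The weak-site intron of HNRNPH1 (chr5:179045325-179046269, minus strand, score 4.69) had 22.995% at 60 min, and the comparison intron (chr5:179041961-179042546, score 9.08) had 86.8%. In RBMX the weak-site intron (chrX:135961283-135961477, minus strand, score 2.17) had 88.2%, and the comparison intron (chrX:135956612-135957244, score 9.1) had 34.2%. The HNRNPH1 weak-site intron was the least excised of its 3. The RBMX comparison intron was the least excised of its 4, of which the highest had 92.7%.

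Other deposited features differed between the groups. The polypyrimidine score, over the 75 nt upstream of the 3' site, had a median of 23 against 29 in comparison introns; it covers bases that the 3' score also reads, so part of this difference is set by the rule. The branch point score had a median of 0.53 against 0.62. In the exon downstream, the sets of exonic enhancer motifs went both ways. The median density of one motif set (Chasin) was 30.8% against 27.3%, and that of another (Fairbrother) 19.8% against 15.9%. The sets for the SR proteins SRP40, SRP55 and SC35 were slightly lower there, with 24.6% against 25%, 11.6% against 12.2% and 24% against 25.5%. The density of silencer motifs (Chasin) in that exon was 7.34% against 8.33%. For the Fairbrother set upstream exons differed less, with a density of 16.7% against 15.3%. Within the range set by the rule, weak-site introns were slightly shorter (median 1504 against 1652 nt) and lower in GC (39.2% against 40.8%), and their 5' scores were alike (8.94 against 8.99). With comparison introns weighted to the length, GC and 5' score of the weak-site introns, the difference in excised share was -2.44, -3.05, -2.11, -1.63 and -1.36 points over the 5 times, larger than without weights from 15 min on.

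The difference between the groups was also taken by tercile of the Fairbrother and Chasin enhancer densities of the downstream exon, without a test. The pattern was not the same for both sets. In the tercile of introns with the lowest Fairbrother density, weak-site introns had a median of 80.9% at 60 min and comparison introns 83.7%. The difference in the middle tercile was -2.05 points, and in the tercile with the highest density the medians were 86.4% and 86.2%. At 7.5 min the differences from the lowest to the highest tercile were -3.74, -3.59 and -1.68 points. The other enhancer set (Chasin) gave -2.51, -0.06 and -0.80 points at 60 min, so the difference was smallest in the middle tercile, and -2.57, -1.86 and -3.85 points at 7.5 min. The difference was uneven over terciles of other features too. By branch point score it was -1.64, 0.30 and -1.64 points at 60 min, from the lowest to the highest tercile. Levels also went with position. Introns in the tercile nearest to the transcription start reached 78.4% (weak-site) and 80.2% (comparison) at 60 min, and those in the farthest tercile 87.8% and 88.8%. By GC content, weak-site introns of the highest tercile had 79.6% at 60 min and comparison introns 82.2%, against 85.7% and 87.4% in the lowest tercile.

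Genes for the machinery that reads 3' splice sites held weak-site introns about as often as other genes, at 13.2% of the list's introns within the length, GC and 5' score limits against 14.1% over all genes. Of 28 genes listed for 3' splice site recognition, 20 had introns in the table, and 11 of these held 20 weak-site introns. These 20 had a median excised share of 43.7% at 7.5 min and 82.1% at 60 min, and the list's 131 comparison introns had 49.9% and 87.4%. U2SURP, a U2-associated protein, had 4 weak-site introns, with excised shares from 32.0% to 56.5% at 7.5 min and from 79.9% to 84.8% at 60 min. SF1 had 2, one of them (chr11:64535317-64535577) with a score of 0.64 and an excised share of 90.7% at 60 min. The weak-site intron of SF3B1, the branch-point binding subunit of SF3B (chr2:198263306-198264778, score 5.99), went from 39.7% to 87.9%, and that of SF3B6 from 86.3% to 95.4%. The least excised of the 20 at 60 min lay in RBM17, a U2-associated factor (chr10:6155545-6156011, 63.3%).

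The TPM table gave values per library for whole genes, and the unspliced share of a gene was its primary TPM (an isoform that spans the whole locus) divided by primary plus mature TPM. It is a readout of the host gene, not of the single intron. Hosts of weak-site introns had a lower unspliced share than hosts with comparison introns only, which is the opposite order to that of the excised shares of the introns. Over 1199 hosts of weak-site introns the median share was 33.1%, 30.9% and 30.7% in the 3 libraries at 7.5 min, and over 2229 hosts with comparison introns only it was 35.7%, 33.9% and 34.2%. At 60 min the values were 7.49%, 10.3% and 11.5% against 8.999%, 12.7% and 14.02%. The groups of libraries did not overlap between 7.5 and 60 min, and within each of the 18 libraries the hosts of weak-site introns were lower. This did not hold in each library among hosts with 3 to 10 introns within the limits, described next.

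As means over 3 libraries, the difference between the 2 kinds of host was -3.03 ± 0.43 points (SD, n = 3) after 7.5 min of labelling, -3.59 ± 0.49 after 15 min, -4.40 ± 0.46 after 30 min, -2.97 ± 0.74 after 45 min and -2.14 ± 0.55 after 60 min. It was -0.22 ± 0.12 points in total RNA, where the unspliced share was 1.53% ± 0.33 in hosts of weak-site introns. From 7.5 to 60 min the difference changed by 0.89 points (p = 0.1 by an exact permutation of the libraries, two-sided, which is the lowest value that 3 against 3 can give). Hosts of weak-site introns had a median of 5 introns within the length, GC and 5' score limits and the other hosts 2. In the 742 and 766 hosts with 3 to 10 such introns, the difference over the same 5 times was -0.08 ± 0.75 points (up to 0.44 in 1 library at 7.5 min), -0.90 ± 0.28, -2.27 ± 0.48, -1.73 ± 0.72 and -1.24 ± 0.47. In total RNA it was 0.01 ± 0.05 points, and the change from 7.5 to 60 min was -1.17 points (p = 0.2 by the same permutation). The difference was thus smaller at each time in hosts limited to this range, close to 0 at 7.5 min and in total RNA, and the direction of the change turned. Within the range, the 2 kinds of host were not matched in intron number. By the authors' deposited processing score, hosts of weak-site introns had a median percentile of 78.4 among all scored genes and the other hosts 71.5. This comparison took all hosts, with no limit on their number of introns.

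**Figure D5:**
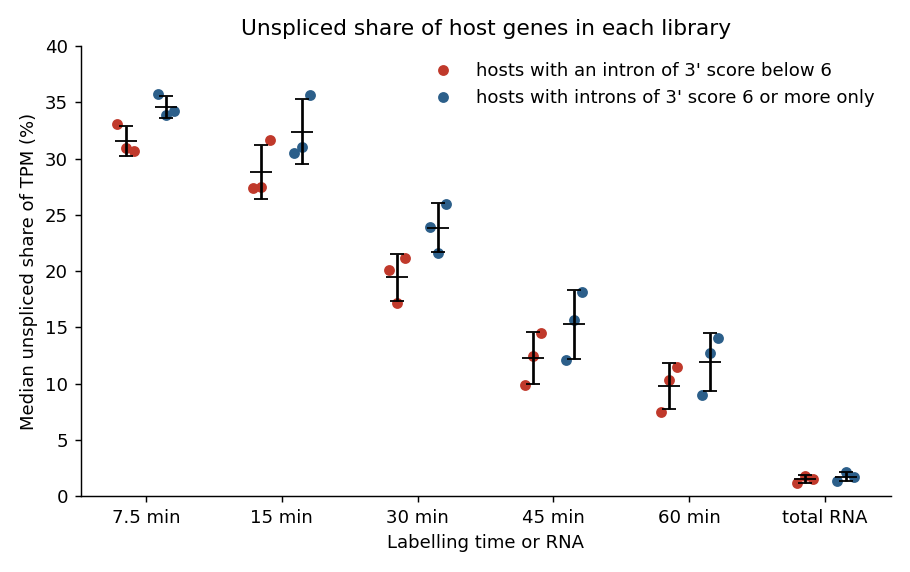
Median unspliced share of TPM (%) in each of the 18 libraries for hosts of weak-site introns (red) and hosts with comparison introns only (blue); black marks are means ± SD over 3 libraries. Red lies below blue in each group, and both fall from above 30% at 7.5 min to 9.77% and 11.9% at 60 min.

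The ratio of primary to mature TPM was tested per gene between 7.5 and 60 min with limma on log2 values over all 15 labelled libraries. Of 13879 genes tested, 62.8% had a lower ratio at 60 min and 1.09% a higher one (Benjamini-Hochberg adjusted p below 0.05). Among the 1199 hosts of weak-site introns 1117 (93.2%) fell and 6 (0.50%) rose, with a median log2 change of -2.09. Among the 2229 hosts with comparison introns only 1868 (83.8%) fell and 35 (1.57%) rose, with a median of -1.97, and the median over all genes tested was -1.81. Both kinds of host held introns that passed the authors' read minimum, which was not asked of all genes tested. The 2 kinds also differed in intron number, with medians of 5 and 2 within the limits. Whether these differences bear on the shares of calls was not tested. With ratios centred on the median of all genes in each library, 300 hosts of weak-site introns (25.02%) were lower and 120 (10.01%) higher, so the split of calls depended on this centring. Of all genes tested 14.9% were then lower and 12.8% higher, and of hosts with comparison introns only 21.2% were lower and 17.6% higher.

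Named hosts illustrate the range. The unspliced share of TPR was 32.8%, 23.9% and 26.8% in the libraries at 7.5 min and 7.54%, 5.03% and 5.05% at 60 min, with no overlap. Its log2 ratio changed by -2.63 ± 0.39 (SE, limma adjusted p = 9.63e-05), and by -0.79 ± 0.49 with centred ratios, which did not pass (limma adjusted p = 0.251). EIF3A went from 42.6%, 35.0% and 35.9% to 5.90%, 6.88% and 8.04%, a change of -3.03 ± 0.26 (limma adjusted p = 4.68e-06), and of -1.19 ± 0.22 with centred ratios (limma adjusted p = 0.00199). HNRNPH1, whose weak-site introns were among the least excised, went from 11.1%, 10.9% and 10.9% to 6.08%, 5.65% and 5.10%, a change of -1.05 ± 0.22 (limma adjusted p = 0.000947) that turned to 0.78 ± 0.27 with centred ratios (limma adjusted p = 0.0447). RPL6 was at 1.16%, 1.203% and 1.00% at 7.5 min and at 1.27%, 1.09% and 0.893% at 60 min. Its libraries overlapped, and the change of -0.06 ± 0.37 did not pass the test (limma adjusted p = 0.903), while with centred ratios it was 1.78 ± 0.41 and passed (limma adjusted p = 0.00781). RPS24, by contrast, rose from 3.42%, 2.39% and 1.71% to 4.65%, 4.31% and 3.72%, a change of 0.83 ± 0.28 (limma adjusted p = 0.0185), and of 2.67 ± 0.33 with centred ratios (limma adjusted p = 0.000184). The other 5 hosts of weak-site introns that rose were MYL6, FKBP8, BEX3, RPL41 and RPL27A, named after their values were seen, with log2 changes from 0.71 (RPL27A) to 1.39 (BEX3). The number that rose was 3 without the third 7.5 min library, 2 without the first 60 min library and 3 without the second 60 min library.

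In the list of 3' splice site recognition genes, 27 of 28 were tested, 24 (88.9%) fell and 0 rose by the same limma test, with a median log2 change of -1.98. With centred ratios 3 were lower and 3 higher, beside 14.9% and 12.8% of all genes tested, so these counts do not set the list apart. Those that fell include SF3B1 (-2.75), U2SURP (-2.25), SF1 (-1.40), SF3B6 (-0.82) and U2AF2 (-0.68). U2AF1 had an unspliced share of 38.5% ± 4.13 (SD, n = 3) at 7.5 min and 27.9% ± 3.94 at 60 min, and its change of -0.70 ± 0.32 did not pass (limma adjusted p = 0.0726). The other 2 that did not pass were U2AF1L4, a relative of U2AF1 (-1.43 ± 1.61), and PUF60, a U2AF2-related tract-binding protein (-1.37 ± 1.28).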

How the data were processed

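Gene expression was deposited by the authors as TPM of mature and primary transcripts, which carry no read depth. The submitters' processing notes name RSEM 1.2.11, Bowtie 1.0.1 and the hg19 build, and the file headers state that GENCODE 19 was extended by 1 whole-locus isoform for each gene. The authors deposited the excised share (theta) and psi as a fraction averaged over 3 replicates, computed with a slightly modified bam2ssj per the file headers; how those junction reads were aligned is not stated there. The authors also deposited MaxEnt, SVM-BPfinder and gene rate values as a score, exonic motif densities from SROOGLE as a fraction, and lengths on a log10 scale, per the file headers. Psi was clustered by the authors with k-means.

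From these, medians and shares of introns were computed with pandas 2.3.3 in Python 3.11.15. Host ratios were log2((primary TPM + 0.1)/(mature TPM + 0.1)) of genes whose mean over labelled libraries reached 1 TPM (mature) and 0.1 TPM (primary). They were tested with limma 3.58.1 (R 4.3.3, empirical Bayes with trend, labelling time as factor, no block, Benjamini-Hochberg over all genes tested, threshold 0.05), after a check on simulated data. Depth is unknown, so no counting interval is given. Sites were taken from GENCODE 29 transcripts by gene, length and GC content (tolerance 1e-05), never by coordinates, and identity with hg19 was not checked; introns of 1 chromosome were not printed. Symbols matched 4130 of 4163 genes. Named were the introns with the lowest scores and with the lowest and highest excised share at 60 min, the 6 genes with most weak-site introns, the largest differences within genes, and introns on both sides of the score cut. The members, lists and tests were chosen with earlier results of these data known. Thresholds, length, GC and score limits, weighting, filters, pseudocounts, a replicate block and left-out libraries were tried as alternatives.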

Additional observations from a re-analysis of the deposited data

How the results depend on the processing

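The difference in median excised share between weak-site and comparison introns kept its direction at each time under 15 of the 16 alternatives tried, 4 of which were chosen after seeing the data (constitutive introns only, without the 6 genes with most weak-site introns, protein-coding genes only, and without scores below 2). The exception was 1 value per gene, with 0.13 points at 30 min, 0.11 at 45 min and -0.20 at 60 min; the cause was not tested. A score threshold of 5 gave -1.89 points at 60 min. A threshold of 7 gave -1.47, -0.22, -0.32 and -0.33 points from 15 to 60 min. The comparison within genes gave -1.36 points at 7.5 min. At 30 min the difference was -1.75 with a threshold of 5, -2.11 with weighted comparison introns, -0.64 without shared splice sites and -0.38 against scores of at least 9. At 45 min it was -1.52 with a threshold of 5, -1.63 with weights, -1.50 with GC below 45%, -1.46 with a 5' score of at least 8, and -0.64 both against scores of at least 9 and without scores below 2. All introns had values at all 5 times, so that alternative changed nothing.

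For all host genes, the change of the difference in unspliced share from 7.5 to 60 min was 0.89 points (p = 0.1 by exact permutation of the libraries). It ranged from 0.58 to 1.08 points when 1 library was left out. In hosts with 3 to 10 introns within the limits the change was -1.17 points (p = 0.2 by the same permutation). In hosts with at least 2 weak-site introns the change was 0.39 points (p = 0.5 by the same permutation). The number of hosts of weak-site introns with a lower ratio ranged from 1072 to 1104 without 1 library and the number with a higher ratio from 2 to 7; ratios centred on the median of all genes gave 300 and 120. With the replicate letter as a block the counts were 1126 lower and 7 higher. The change of the difference is 0.89 points by construction when taken within letters (p = 0.25 by exact sign changes, two-sided). The 3 within-letter differences allow few sign arrangements, so a low p cannot arise. The labels do not tell whether the letters pair libraries. Same-letter correlations of the deviations were 0.14, 0.08 and 0.05, each above the highest with another letter. The difference in unspliced share was smallest in the first and largest in the third library of each labelling time. It was -2.65, -2.95 and -3.50 points at 7.5 min and -1.51, -2.38 and -2.53 points at 60 min. The main tests took no account of the letters. Depth was not analysed here, so its limit on single introns is unknown.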

Other observations

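The share of introns with weak 3' sites was near the overall share in most gene lists and further from it in a few, with no test of the differences. Of introns within the length, GC and 5' score limits, 14.1% were weak-site introns over all genes, 19.6% in listed mitotic genes (20 introns in 11 genes), 17.9% in MCM2 to MCM7, the replicative helicase (10 introns), 9.62% in proteasome genes (15 introns) and 5.26% in aminoacyl-tRNA synthetase genes (9 introns). The other 5 lists lay closer to the overall share, with 14.5% in both ribosomal protein and ZNF genes, 13.8% in nuclear genes of oxidative phosphorylation, 13.2% in 3' splice site recognition genes and 11.97% in DNA repair and replication genes. At 60 min the weak-site introns of mitotic genes had a median excised share of 90.1% and their comparison introns 85.8%, so the order was the reverse of that over all genes. In aminoacyl-tRNA synthetase genes the values were 75.8% and 83.4%, and in nuclear genes of oxidative phosphorylation 70.4% and 78.4%. In ribosomal protein genes (28 weak-site introns) they were 79.5% and 76.6%, and in zinc finger genes with ZNF symbols (19 weak-site introns) 78.9% and 80.9%. Each list holds few weak-site introns, and no library values exist for a test.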
